A study of Homo sapiens with 2 samples.

Results

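The axon guidance ligands and receptors are the genes of the semaphorins, the plexins and neuropilins that bind them, the ephrins and their EPH receptors, the SLIT proteins with their ROBO receptors, and netrins with UNC5 and DCC. They were taken by gene symbol from the array's annotation. This gave 168 of 54675 probe sets and 66 of 19775 named genes, and 1 further probe set, annotated to SEMA3B and a microRNA, was left out because it carries more than one symbol. The samples were HEK293T cells, a human embryonic kidney line with the large T antigen of simian virus, transfected with polyethylenimine. One population had received pcDNA3.1-IRX1::GFP, which encodes the homeobox protein IRX1 fused to green fluorescent protein (IRX1::GFP), and the other pcDNA3.1-GFP, the same vector type with the fluorescent protein alone (GFP control). Cells with GFP were sorted after 48 h in both, so both populations were of one line, transfected and sorted. The vector was designed for transient overexpression of IRX1, and its single probe set was not above background on either array.

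Axon guidance proteins tell a growing axon or a migrating cell where to go. Ephrins sit on the cell surface, class A by a lipid anchor and class B by a membrane span, and signal in both directions on contact with EPH receptor tyrosine kinases. Semaphorins act through plexins, for most secreted ones together with a neuropilin. SLIT proteins repel cells that carry ROBO receptors, and netrins attract through DCC and repel through UNC5. The same proteins shape epithelia and vessels, and most are expressed outside the nervous system, kidney included.

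RNA of each population was measured on 1 HG-U133 Plus 2.0 array, which reads each gene with 1 or more probe sets. The values were MAS5 signals, an intensity scaled within each array, with a median of 195 with IRX1::GFP and 171 in the GFP control. Differences are given as the log2 of the IRX1::GFP signal over that of the GFP control, and are above 0 where IRX1::GFP was brighter. A single array for each condition leaves no error between cultures and no p-value, and this number bounds the precision of every value. The one measure of noise was how far probe sets for the same gene spread in log2 ratio, with an SD of 0.49 over 5930 genes and of 0.47 over the 13 axon guidance genes with more than 1 probe set of sufficient signal. A gene was represented by its brightest probe set and kept where the mean of its signals reached 183. It was counted as higher or lower from a 2-fold difference between the signals as read, also where a signal was under background. Background was the level under which 90% of 107 olfactory receptor probe sets lay, 179 with IRX1::GFP and 143 in the GFP control. Where one signal was under background the fold is a lower bound against that level, and where both were, none is given. A gene counted as higher or lower can thus have a bound short of 2-fold. In bulk RNA, fewer cells that express a gene and less of its RNA per cell cannot be told apart.

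The markers of the labelled line were present. All 5 genes listed for HEK293T (VIM, KRT8, KRT18, NEFM and NEFL) were above background on both arrays. Their levels moved too, since the neurofilament gene NEFL was 2.73-fold and the keratin gene KRT18 2.19-fold higher with IRX1::GFP, while NEFM was 1.91-fold and KRT8 1.43-fold higher and VIM 1.36-fold lower, within 2-fold. Of 12 measured markers of blood, liver, endothelial, connective tissue and glial cells 3 were above background with IRX1::GFP and 4 in the GFP control. Their summed signal was 3915 with IRX1::GFP and 1745 in the GFP control, and none was at 0. COL1A1 made most of that difference, at 2571 with IRX1::GFP and 631 in the GFP control, and the part of these markers in the results below was not tested. The single IRX1 probe set read 57 with IRX1::GFP and 33.1 in the GFP control, both under background. Its position relative to the transfected coding sequence could not be read from the files, so it checks no label.

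Promoter windows of PLXNB2 and SEMA4G, which were higher, and of SEMA3C, which was lower, show what sequence the data can be set beside. Each runs from 250 bases before the transcription start to 50 after it, 5′ to 3′ on the strand of the gene, taken from RefSeq on GRCh38.p14. The PLXNB2 window is chr22:50301620-50301919 on the minus strand, that of SEMA4G chr10:100972279-100972578 on the plus strand and that of SEMA3C chr7:80919002-80919301 on the minus strand. Capitals mark the Iroquois site ACANNTGT, the palindrome known for this family from Drosophila, in PLXNB2, and the EGR site GCGTGGGCG in SEMA4G. The SEMA3C window has no match to either. SEMA4G and SEMA3C each have another window, not printed here, which holds neither site. The printed SEMA4G window is thus that with the EGR site.
PLXNB2: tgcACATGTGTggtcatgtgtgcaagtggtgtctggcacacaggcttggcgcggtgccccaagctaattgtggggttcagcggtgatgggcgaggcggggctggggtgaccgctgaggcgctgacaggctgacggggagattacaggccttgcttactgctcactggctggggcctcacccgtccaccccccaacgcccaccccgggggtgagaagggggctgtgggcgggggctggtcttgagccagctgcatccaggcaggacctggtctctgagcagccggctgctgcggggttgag
SEMA4G: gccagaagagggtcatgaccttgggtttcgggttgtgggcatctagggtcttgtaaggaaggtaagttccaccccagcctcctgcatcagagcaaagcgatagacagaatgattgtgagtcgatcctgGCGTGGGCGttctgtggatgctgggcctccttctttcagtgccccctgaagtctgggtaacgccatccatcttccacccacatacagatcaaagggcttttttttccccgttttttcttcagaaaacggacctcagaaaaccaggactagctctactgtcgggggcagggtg
SEMA3C: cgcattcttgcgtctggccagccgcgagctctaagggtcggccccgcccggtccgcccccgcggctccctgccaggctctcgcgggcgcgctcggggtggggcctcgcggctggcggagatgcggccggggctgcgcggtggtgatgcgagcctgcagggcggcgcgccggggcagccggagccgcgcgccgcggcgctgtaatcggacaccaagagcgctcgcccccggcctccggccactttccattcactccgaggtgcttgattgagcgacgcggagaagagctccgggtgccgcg

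Of 88 windows of 57 axon guidance genes, 2 held an Iroquois site (2.27%), against 5.62% of all 35116 windows of this length, both strands searched. Besides PLXNB2, with ACATGTGT 247 bases before the start, the other was SEMA4B, with ACATCTGT and signals within 2-fold. The EGR site was in 2 windows, of SEMA4G and ROBO3, again 2.27%, against 0.795% of all windows. Each motif was in 1 of 13 windows of the higher genes and 1 of 30 of the genes within 2-fold. None of the 11 windows found for 7 of the lower genes held either motif. So few windows cannot be told apart from shares of 5.62% and 0.795%. A match is a run of letters and not a measured binding site.

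Past the filter were 12193 of all 19775 genes. Of the 66 axon guidance genes, 40 had a brightest probe set past it. Of these, 10 had a signal at least 2-fold higher in IRX1::GFP cells, 25% against 10.4% of all 12193 genes past the filter, and 9 were at least 2-fold lower, 22.5% against 5.34%. The genes behind these shares were 1267 higher and 651 lower. With the median log2 ratio of all probe sets, 0.11, subtracted from every ratio they were 1047 and 850. The other 21 were within 2-fold, 16 of them above and 5 below equal signal. The median log2 ratio of the 40 was 0.65, against 0.07 over all genes, and the ratios ran up to 3.16 for PLXNB2 and, where both signals were above background, down to -1.52 for ROBO1. The ratio of -3.02 for SEMA3C, and that of NRP1, have an IRX1::GFP signal under background and hold only as bounds. Both signals reached the filter level in 32 of the 40. In 4 only the IRX1::GFP signal did, and in 4 only the GFP control signal, so these 8 passed through the array where they were high. All of these 8 except SEMA4A are among the genes counted above as higher or lower. Of the 10 higher genes 7 had both signals above background, and of the 9 lower genes 5. With dim signals raised to the 50th percentile of their own array, the other genes except SEMA3C came within 2-fold. Counted as probe sets, 11 of 58 past the filter were higher, against a background of 9.15%, and 12 lower, against 6.02%, and their median was 0.16.

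**Figure D1:**
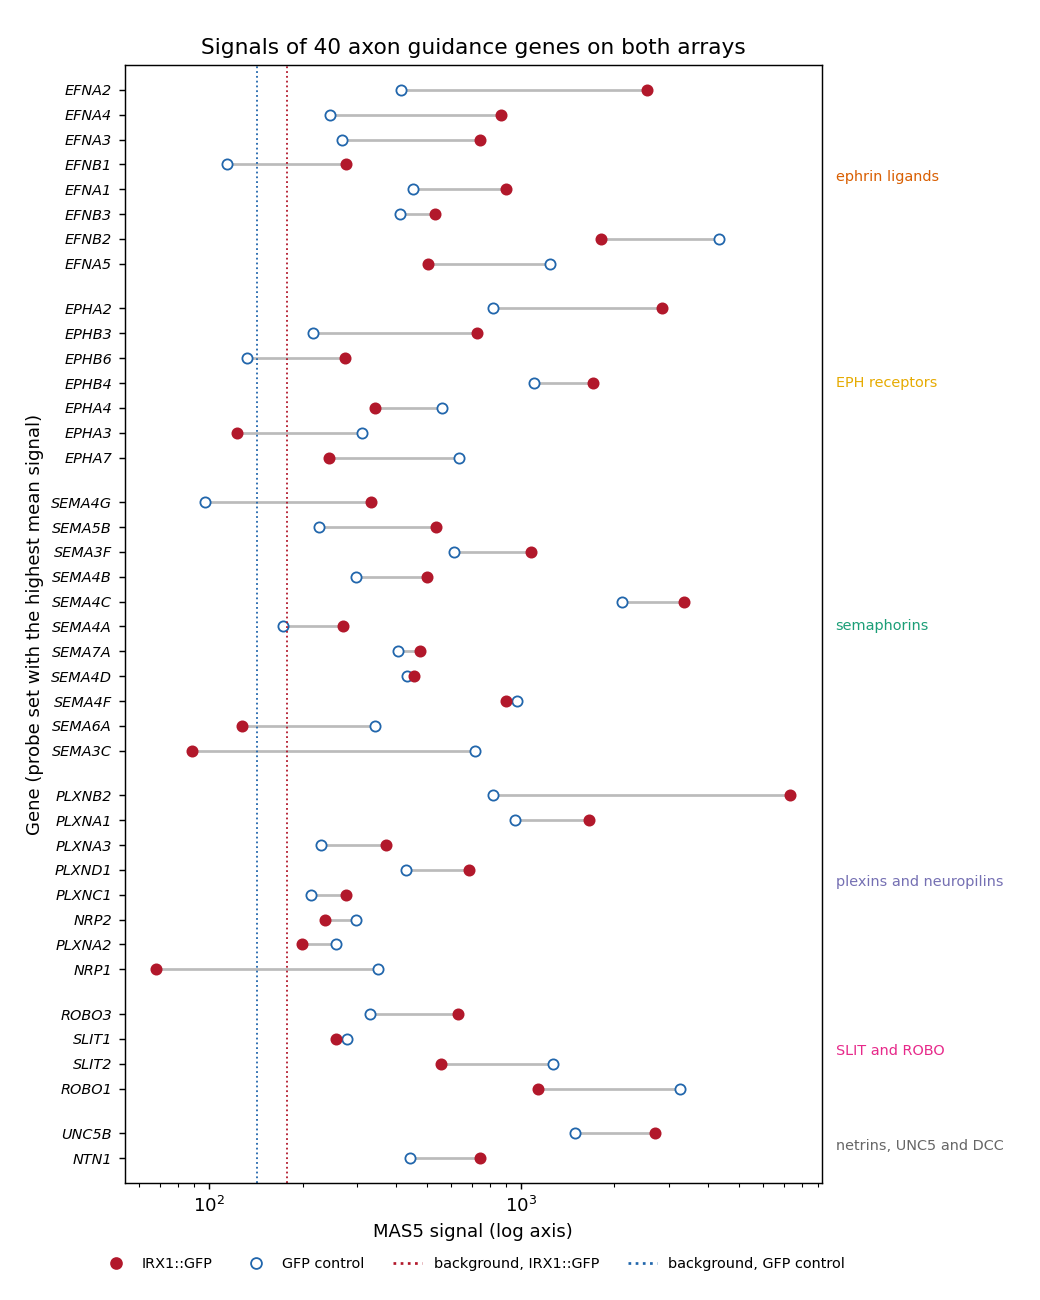
MAS5 signals (log axis) of the 40 axon guidance genes past the filter, by family, with 1 array per condition; filled points are IRX1::GFP, open points GFP control, and dotted lines the background of each array. PLXNB2 and EFNA2 have the widest gaps to the right, and SEMA3C and NRP1, both under background with IRX1::GFP, the widest to the left.

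Ephrin ligands went both ways. Of 8 genes, all past the filter, 4 were higher and 2 lower. This count and those of the other families stand beside 10.4% higher and 5.34% lower of all genes. EFNA2, a class A ephrin, had a signal of 2536 with IRX1::GFP and 415 in the GFP control, 6.11-fold higher. Its other probe sets were not above background on either array. EFNA4 read 863 with IRX1::GFP and 245 in the GFP control, 3.52-fold higher. EFNA3 read 740 with IRX1::GFP and 269 in the GFP control, 2.75-fold higher. EFNA1, the ephrin first found in endothelial cells, stayed just under the limit, at 901 with IRX1::GFP and 451 in the GFP control, a log2 ratio of 0.997. EFNA4, EFNA3 and EFNA1 lie next to each other on chromosome 1 with no other protein-coding gene between them, and their log2 ratios were 1.82, 1.46 and 0.997, so that EFNA4 and EFNA3 passed 2-fold and EFNA1 did not. EFNA5, the remaining class A ephrin, ran the other way. Its 3 probe sets past the filter read 506, 683 and 209 with IRX1::GFP and 1247, 987 and 351 in the GFP control, and the brightest was 2.47-fold lower. The dimmer ones were within 2-fold, at log2 ratios of -0.53 and -0.75, so the call of EFNA5 rests on its brightest probe set.

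Among class B ephrins, EFNB2, which marks arteries and binds EPHB4, was lower. It read 1808 with IRX1::GFP and 4319 in the GFP control, 2.39-fold lower, and its second probe set 702 with IRX1::GFP and 1214 in the GFP control, within 2-fold. EFNB1 was higher, at 275 with IRX1::GFP and 114 in the GFP control, where the signal was not above background, so at least 1.92-fold. EFNB3 read 533 with IRX1::GFP and 409 in the GFP control on the brighter probe set, and 603 with IRX1::GFP and 300.4 in the GFP control on the other. The other reached 2-fold and the brighter did not. Of the 8 ephrins, then, only EFNA5 and EFNB2 had lower signals with IRX1::GFP on their brightest probe set.

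EPH receptors past the filter numbered 7 of 13, with 3 higher and 2 lower. EPHA2, an epithelial receptor of class A ephrins, read 2842 with IRX1::GFP and 818 in the GFP control, 3.48-fold higher on its only probe set. EPHB3 read 728 with IRX1::GFP and 215 in the GFP control, 3.38-fold higher. Its second probe set went the same way, at 209 with IRX1::GFP and 68.8 in the GFP control, the control signal under background. EPHB6 lacks kinase activity. It read 274 with IRX1::GFP and 133 in the GFP control, at least 1.91-fold. Its log2 ratio of 1.05 came within 2-fold, at 0.94, with the median log2 ratio of all probe sets subtracted.

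Lower were the receptors EPHA7 and EPHA3, both known from the developing nervous system. The 3 probe sets of EPHA7 past the filter read 243, 183 and 114 with IRX1::GFP and 634, 580 and 260 in the GFP control. All had measured log2 ratios past 2-fold, from -1.66 to -1.19, although the weakest IRX1::GFP signal was under background and bounds that probe set at 1.46-fold only. This made EPHA7 the only gene of the 13 with several probe sets past the filter for which every one of them passed 2-fold. EPHA3 read 124 with IRX1::GFP and 309 in the GFP control, at least 1.73-fold lower, the IRX1::GFP signal being under background. The other EPHA3 probe sets were under background on both arrays. EPHA4 went the same way within 2-fold, at 341 with IRX1::GFP and 561 in the GFP control. EPHB4 had probe sets of opposite sign, at 1711 with IRX1::GFP and 1102 in the GFP control for the brighter and 329 with IRX1::GFP and 449 in the GFP control for the other. By class, 1 of 4 EPHA receptors was higher and 2 lower, while 2 of 3 EPHB receptors were higher and 0 lower. Of all genes 10.4% were higher and 5.34% lower, and EPHA3 and EPHB6, counted here, have bounds short of 2-fold. The difference between the classes was not tested.

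Of 11 semaphorins past the filter, 2 were higher and 2 lower. SEMA3C, a secreted semaphorin that acts through neuropilins, read 88.6 with IRX1::GFP and 717 in the GFP control. The IRX1::GFP signal was under background, so the fold was at least 4.01 lower. A dimmer probe set that did not pass the filter read 60.9 with IRX1::GFP and 271 in the GFP control, also under background with IRX1::GFP alone. SEMA6A, a membrane-bound semaphorin, was lower too, at 128 with IRX1::GFP and 342 in the GFP control, at least 1.91-fold. Its second probe set read 196 with IRX1::GFP and 229 in the GFP control, close to equal. Higher were SEMA4G and SEMA5B. SEMA4G read 333 with IRX1::GFP and 97.2 in the GFP control, at least 2.32-fold. Another SEMA4G probe set was under background on both arrays. SEMA5B read 536 with IRX1::GFP and 226 in the GFP control, 2.37-fold.

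The other 7 semaphorins past the filter were within 2-fold, from a log2 ratio of -0.12 for SEMA4F to 0.83 for SEMA3F. SEMA4C, a ligand of plexin-B2, read 3354 with IRX1::GFP and 2112 in the GFP control on the brighter probe set, and 392 with IRX1::GFP and 539 in the GFP control on the other, so its probe sets had opposite signs. SEMA3F, a secreted semaphorin that binds NRP2, read 1082 with IRX1::GFP and 609.9 in the GFP control, and its second probe set 216 with IRX1::GFP and 170.3 in the GFP control. Both probe sets of SEMA3F were higher, within 2-fold. SEMA4F was near equal, with 3 probe sets at log2 ratios from -0.12 to 0.31. The remaining genes within 2-fold, here and in the other families, are given to account for all 40 and were chosen after their values were seen. SEMA4D, the ligand of plexin-B1, was near equal at 456 with IRX1::GFP and 432 in the GFP control. SEMA4B read 501 with IRX1::GFP and 297 in the GFP control, and SEMA4A 269.6 with IRX1::GFP and 174 in the GFP control. SEMA7A, which is held by a lipid anchor, read 477 with IRX1::GFP and 405 in the GFP control. Another 9 semaphorin genes did not pass the filter. Of these 7 had neither signal above background.

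Of 8 plexins and neuropilins past the filter, 1 was higher and 1 lower. PLXNB2, the receptor plexin-B2, read 7307 with IRX1::GFP and 817 in the GFP control. This was 8.94-fold higher, with both signals well above background. It rests on 1 probe set, whose ID ends in the suffix for probes shared between transcripts. The other PLXNB2 probe set read 9.15 with IRX1::GFP and 21.5 in the GFP control, both far under background, and so says nothing on the direction. Of its relatives, PLXNB1 and PLXNB3 did not pass the filter. PLXNA1, a receptor of semaphorin and neuropilin complexes, read 1660 with IRX1::GFP and 962 in the GFP control, within 2-fold. Of the plexins past the filter, PLXNA1, PLXNA3, PLXNC1, PLXND1 and PLXNA2 were within 2-fold, at log2 ratios of 0.79, 0.70, 0.37, 0.67 and -0.37, and the second probe set of PLXNA1 was at -0.33.

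NRP1, the co-receptor of secreted semaphorins and of vascular endothelial growth factor, was lower. It read 68 with IRX1::GFP and 348 in the GFP control, at least 1.95-fold lower against background. This rests on 1 probe set, as the other NRP1 probe sets were under background on both arrays. NRP2 was within 2-fold on both probe sets past the filter, at log2 ratios of -0.34 and -0.37. On their brightest probe sets SEMA3C and NRP1, ligand and co-receptor, thus both had signals under background with IRX1::GFP and above it in the GFP control.

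ROBO1 and its ligand SLIT2 were both lower, SLIT2 not under every way of joining its probe sets. ROBO1 read 1139 with IRX1::GFP and 3257 in the GFP control, 2.86-fold lower on its only probe set. SLIT2, a secreted repellent, read 556, 493 and 433 on 3 probe sets with IRX1::GFP and 1271, 991 and 703 in the GFP control. All 3 probe sets of SLIT2 were lower, at log2 ratios from -1.19 to -0.70, the third within 2-fold. With the mean over probe sets SLIT2 was at -0.97 and with only _at probe sets at -0.70, both within 2-fold. SLIT1 read 256 with IRX1::GFP and 278 in the GFP control, and ROBO3, a ROBO of crossing axons, 629 with IRX1::GFP and 329 in the GFP control, both within 2-fold. SLIT3, ROBO2 and ROBO4 did not pass the filter. One SLIT3 probe set read 199 with IRX1::GFP and 22.1 in the GFP control, and its others were under background on both arrays. Of 4 genes of this family past it, 0 were higher and 2 lower.

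Netrins and their receptors showed no difference of 2-fold among the genes past the filter. NTN1, which encodes netrin-1, read 740 with IRX1::GFP and 443 in the GFP control, and UNC5B, a repellent netrin receptor, 2691 with IRX1::GFP and 1497 in the GFP control. The other UNC5B probe sets past the filter were at log2 ratios of 0.51 and -0.04. DCC, the attractive receptor, was not above background on either array. UNC5C was chosen after its values were seen. Its brightest probe set, with a mean short of the filter, read 22.5 with IRX1::GFP and 300.5 in the GFP control, at least 1.68-fold lower. The other UNC5C probe sets were under background on both arrays.

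The 26 genes that did not pass the filter were 19 with neither signal above background on the brightest probe set and 7 with one above. Over all 168 probe sets, 49 were above background on both arrays, 10 with IRX1::GFP only, 17 in the GFP control only and 92 on neither. The background levels differed, at 179 with IRX1::GFP and 143 in the GFP control. The same split over all probe sets of the array is not given here, so these counts have no share to stand beside. Among 13 genes with more than 1 probe set past the filter, 8 had the same sign on all and 5 did not. The 5 with mixed signs were EPHB4, PLXNA1, SEMA4C, SEMA4F and UNC5B, none of them at 2-fold on any of these probe sets.

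The higher and the lower genes differed in a feature that the selection did not use, the length of the gene in the genome. The 9 lower genes had a median length of 179.9 kb and ran from 45.9 kb for EFNB2 to 1171 kb for ROBO1. Of these 9, 4 had a fold known only as a bound, as had 3 of the 10 higher genes. The 10 higher genes had a median of 16.7 kb and, apart from SEMA5B at 119.5 kb, ran from 5.81 kb for EFNA4 to 32.7 kb for PLXNB2. Between them lay the 21 genes within 2-fold, with a median of 51.5 kb. Inside the ephrin family the lower genes EFNA5, at 294 kb, and EFNB2 are the longest, while EFNB3 and EFNA1, within 2-fold, at 6.17 and 7.02 kb, are shorter than 3 of the 4 higher ones. Across the 40 genes, which share both arrays and are not replicates, length and log2 ratio had a Spearman rho of -0.71 and a Pearson r, on log2 length, of -0.68. The rho depends on the filter, at -0.38 with none, -0.53 with the 75th percentile and -0.55 with the olfactory receptor level. Over 12172 genes past the filter with a known length the rho was -0.35, and the median length was 12.2 kb for the 1265 higher genes with a length and 67.5 kb for the 651 lower ones. A tie of length and ratio was thus seen over all genes of these arrays too. The array also reads both ends of the ACTB transcript, and the signal at its 3-prime end divided by that at its 5-prime end, a sign of RNA integrity, was 1.64 with IRX1::GFP and 3.23 in the GFP control, and that of GAPDH 1.01 with IRX1::GFP and 1.22 in the GFP control. For both transcripts this end ratio was higher in the GFP control. Its part in the relation with length, and in every other log2 ratio given here, was not tested. The GC content of the promoter windows was less related, with a rho of 0.08 over 35 axon guidance genes and 0.14 over 9968 genes.

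**Figure D2:**
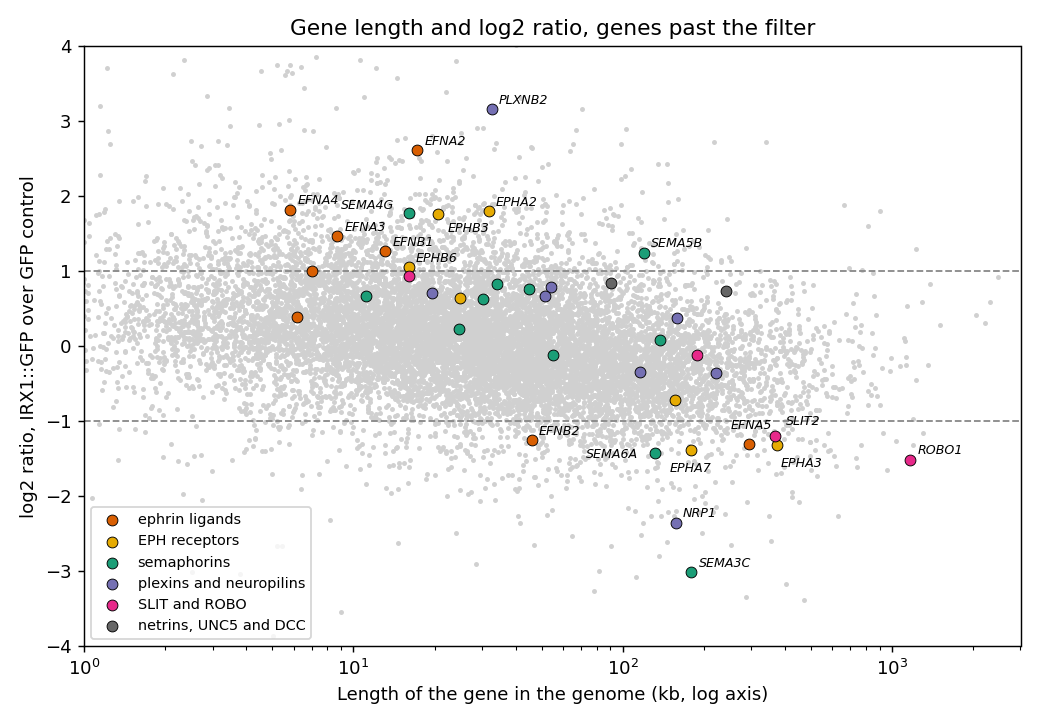
Length of the gene in the genome (kb, log axis) against the log2 ratio (IRX1::GFP over GFP control); coloured points are the 40 axon guidance genes by family, grey points the other genes past the filter, of which 151 lie outside the axes, and dashed lines mark 2-fold. The 9 lower genes lie at 45.9 kb and above, and 9 of the 10 higher ones at 32.7 kb and below. Genes with a fold known only as a bound are included.

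Further genes of guidance signalling were counted in 3 lists. Of 34 other cues and receptors 14 passed the filter, with 2 higher and 2 lower and a median log2 ratio of -0.01. The shares were 14.3% each, beside 10.4% higher and 5.34% lower of all genes. LINGO1, a co-receptor of myelin inhibitors, read 1874 with IRX1::GFP and 643 in the GFP control, 2.92-fold higher. FLRT3, a ligand of UNC5 receptors, read 343 with IRX1::GFP and 1285 in the GFP control, 3.75-fold lower. The neogenin ligands RGMA and RGMB went opposite ways, RGMA 2.08-fold higher and RGMB 2.34-fold lower.

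Among cytoplasmic effectors, which pass the signal from receptor to cytoskeleton, 59 of 65 measured genes passed the filter, with 5 higher and 6 lower. These are 8.47% and 10.2%, beside 10.4% and 5.34% of all genes. The list also holds PLXDC1 and PLXDC2, which encode cell-surface proteins and not cytoplasmic ones. PLXDC1, named for this reason, is among the 6 lower, at 117 with IRX1::GFP, under background, and 261 in the GFP control. RND1, a small GTPase that binds the cytoplasmic part of plexins, read 1761 with IRX1::GFP and 430.4 in the GFP control, 4.09-fold higher. CDK5, a kinase of collapsin response mediators, was 2.82-fold higher, and DPYSL4, one such mediator, 2.18-fold. ABL1, a kinase that binds ROBO1, read 950.3 with IRX1::GFP and 2777 in the GFP control, 2.92-fold lower. FYN, a SRC family kinase, was 2.72-fold lower and the kinase FER 2.37-fold. Of 15 partners of guidance receptors past the filter, 1 was higher and 1 lower. That is 6.67% each, beside 10.4% higher and 5.34% lower of all genes. SDC1, a heparan sulfate carrier, was 4.49-fold higher and EXT1, an enzyme that builds heparan sulfate, 3.13-fold lower.

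**Figure D3:**
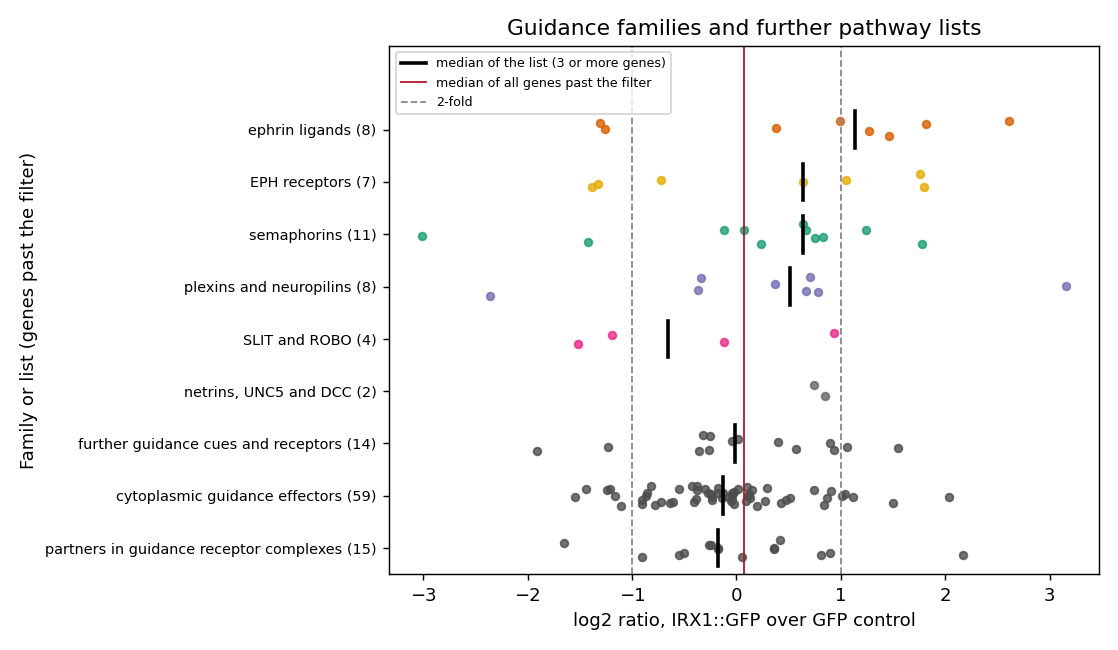
Each point is a gene past the filter, placed by its log2 ratio (IRX1::GFP over GFP control), in 6 guidance families and 3 further lists, with the number of genes in brackets; black bars are list medians, the red line the median of all genes, 0.07, and dashed lines 2-fold. PLXNB2, at 3.16, is the rightmost point and SEMA3C, at -3.02 with an IRX1::GFP signal under background, the leftmost.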

How the data were processed

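Total RNA of sorted HEK293T cells was labelled with biotin and hybridised to HG-U133 Plus 2.0 arrays, 1 per condition. The authors deposited the MAS5 signal of each probe set, a linear intensity. Both arrays had been scaled alike, since leaving off 2% of values at either end gives a mean of 1000 on each. For MAS5, neither version nor target value was given in the sources used here, and detection calls were not used. The study's array legend gives replicates, and whether each array is one of them or a pool was not settled.

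Probe sets were named from the platform annotation. Of 54675 probe sets, 41097 carried 1 symbol, 1801 several and 11777 none. Symbols were updated through gene identifiers in the RefSeq table of GRCh38.p14, where 41043 were found. That table also gave gene length and neighbours, and its promoter windows of 300 bases the sequences. No test was made with 1 array per condition. The log2 ratio was taken for the brightest probe set of each gene, and the 12193 genes whose mean signal reached the 50th percentile of probe sets were kept. Every axon guidance gene past the filter at 2-fold or more is named, with others of their family that have several probe sets or the highest mean signal, and up to 3 higher and 3 lower genes of each further list. The members and lists were chosen with earlier results of these data known. Some genes of these families and lists are not reported here. A simulation over 12193 genes used noise of about the size of the spread between probe sets of the same gene. In it, 99 of 100 genes changed 4-fold and 100 of 100 changed 8-fold were called the right way. Noise between cultures was not simulated, so these counts check the calculation and give no error rate for the arrays. Alternatives were median centring, quantile normalization, loess (span 0.3), other filters, a floor, and other ways to join probe sets. Tables were handled in pandas 2.3.3 and numpy 2.4.6 under Python 3.11.15, with statsmodels 0.14.6 for loess, scipy 1.17.1 for correlations and matplotlib 3.10.9 for plots.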

Additional observations from a re-analysis of the deposited data

How the results depend on the processing

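Of the 19 axon guidance genes at least 2-fold different, 11 kept their call in every alternative in which they had a value: PLXNB2, EFNA2, EFNA3, EFNA4, EPHA2, EPHB3 and SEMA5B as higher, and SEMA3C, ROBO1, EPHA7 and EFNB2 as lower. None changed sign. Median centring moved all log2 ratios by 0.11 and left 9 higher and 9 lower genes, since EPHB6 came within 2-fold, as it also did under quantile normalization and loess. Over all genes, median centring gave 1047 higher and 850 lower, against 1267 and 651. A floor under dim signals took EFNB1, EPHA3, EPHB6, NRP1, SEMA4G and SEMA6A within 2-fold. The mean over probe sets took EFNA5, SEMA6A and SLIT2 within it.

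Without a filter, 17 of 66 axon guidance genes were higher and 15 lower, beside 3456 and 1983 of 19775 genes. With a filter at the 75th percentile, which leaves 11 axon guidance genes, 3 were higher and 3 lower, beside 513 and 415 of 7678 genes. With only _at probe sets, which leaves 32, 9 were higher and 5 lower, beside 947 and 542 of 9302 genes, and EFNA5 (-0.53) and SLIT2 (-0.70) came within 2-fold. Counted as probe sets, the median of axon guidance was 0.16, and of all 22633 probe sets 2070 were higher and 1363 lower. The rank correlation with gene length, chosen only once the values had been looked at, ran from -0.73 to -0.38 over 9 alternatives, weakest without a filter. Leaving out an array was not run, as it would leave a condition without data. No paired analysis was possible because a single pair of arrays carries no replicate numbers.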
